A study of Mus musculus with 27 samples.

Results

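*Ehd3*, *Il1rl1*, *Ndufa4l2*, *Ankrd6*, *Atp1b2*, *Fhl3*, *Allc*, *C1s1*, *C3ar1* and *BC055111* are 10 genes that shifted in opposite directions when the corepressors ETO2 (gene *Cbfa2t3*) and IRF2BP2 were depleted from MEL cells. They are 10 of the 14558 genes listed in all 5 RNA-Seq tables of the series and were taken from each table by their gene symbol. They were chosen by their measured log2 differences, since earlier tests of these same tables placed each one past 0.5 on the log2 scale, upward in one knockdown (KD) and downward in the other. Their values in those KDs are therefore given as a description, without a test. MEL is an established mouse erythroleukaemia line that resembles erythroid progenitors and can be induced to mature. The RNA-Seq libraries numbered 21. *Cbfa2t3* was depleted with the short hairpin RNAs (shRNAs) sh2 and sh3 (2 libraries each, against 2 control libraries) and *Irf2bp2* with sh1 (2 against 2). *Kdm1a*, the gene for the histone demethylase LSD1, was depleted by shRNA (2 against 1), and the labels do not name the hairpin. *Gfi1b* was targeted with siRNA (2 against 2; the methods name 2 siRNAs, and the labels do not say which library received which), and induced MEL cells were compared with non-induced cells (2 against 2). The labels name the KD controls WT, and the methods describe them as MEL cells given a non-targeting shRNA or siRNA. The non-induced cells are labelled as such and stand for the control in the differentiation table, so the 9 control libraries cited here are 7 labelled WT and these 2. Cells with an shRNA were harvested 72 h after transduction, siRNA cells at 48 or 72 h (the labels do not tell which), and differentiation was induced for 96 h. All groups are the same line and each named hairpin is 1 reagent. The methods call the replicates independent biological ones, whereas the labels do not say that they were separate cultures, so p-values measure the spread between these libraries only.

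ETO2 is a corepressor without a DNA-binding domain of its own that is carried to chromatin by the GATA1, TAL1 and LDB1 complex, where it holds late erythroid genes at a low level in progenitors. IRF2BP2 is a corepressor first described as a partner of the interferon regulatory factor IRF2, and both proteins can bring further repressors to a gene, so a gene bound by either may rise when that protein is lost. LSD1 removes methyl groups from histone H3 lysine 4 and works in erythroid cells with the repressor GFI1B. The 10 genes do not form 1 known pathway. *Il1rl1* encodes ST2, the receptor for interleukin 33, *C3ar1* the receptor for the complement fragment C3a, and *C1s1* a serine protease of the first complement component. *Ehd3* encodes an EH-domain protein of endocytic recycling, *Atp1b2* a beta subunit of the Na,K-ATPase, *Ndufa4l2* a mitochondrial NDUFA4-like protein known as a target of the hypoxia-inducible factor HIF1, and *Allc* allantoicase, an enzyme of purine degradation. *Ankrd6* (diversin) is an ankyrin-repeat protein of Wnt and planar cell polarity signalling, *Fhl3* is a LIM-domain cofactor, and *BC055111* is a gene named only by its cDNA clone.

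Assigned counts came to between 44519414 and 57684583 per library in the shRNA tables and between 9929311 and 19623105 in the *Gfi1b* and differentiation tables. A count of 0 thus allowed up to 0.0676 CPM (assigned counts scaled to a common library size) in the former and 0.302 CPM in the latter, counting error only. The targeted transcript fell in the *Cbfa2t3* KD, from 400 and 427 CPM to between 123 and 244 CPM (log2 difference -1.21, edgeR adjusted p = 0.00954), and in the *Kdm1a* KD, from 152 CPM to 16.9 and 16.3 CPM (-3.19, adjusted p = 4.2e-18). *Irf2bp2* RNA went from 116 and 120 CPM to 92.2 and 94.9 CPM, a log2 difference of -0.33 (adjusted p = 0.00266) that is smaller than the limit of 0.5 used for calls. *Gfi1b* itself was at 122.3 and 145.0 CPM in the controls, at 215.8 CPM in the library labelled KD replicate 1 and at 76.5 CPM in KD replicate 2, so the library labelled KD replicate 1 goes against its label. The erythroid factor *Gata1* lay between 347 and 469 CPM in the 9 control libraries. Among myeloid genes, *Csf1r*, *Cd14* and *Mpo* did not exceed 0.403 CPM in the controls, while *Spi1* (44.1 to 132 CPM), *Cebpb* (6.14 to 24.9 CPM), *Fcgr3* (1.85 to 13.0 CPM) and *Cd68* (0.89 to 3.54 CPM) were present. Among mast cell genes, *Ms4a2* and *Fcer1a* did not exceed 0.206 CPM, while *Srgn* (59.9 to 119 CPM), *Hdc* (6.86 to 68.9 CPM), *Gata2* (7.39 to 49.8 CPM), *Mcpt2* (2.97 to 241 CPM) and *Mcpt4* (0.10 to 77.7 CPM) were present. The tables were normalized separately, and in such bulk RNA fewer cells of a type and less RNA per cell cannot be told apart.

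*Il1rl1*, *Ehd3*, *Ndufa4l2*, *Ankrd6*, *Allc*, *C1s1* and *BC055111* were higher with the *Cbfa2t3* hairpins and lower with the *Irf2bp2* hairpin, and *Atp1b2*, *Fhl3* and *C3ar1* were the reverse. For all 10 genes the KD and control libraries did not overlap in either table. The 7 higher and 3 lower genes of the *Cbfa2t3* KD stand against 2.99% of all genes called higher there and 2.75% called lower, and for the *Irf2bp2* KD those shares were 10.1% and 12.5%. Non-overlap held for 37.8% of the 12537 genes tested in the *Cbfa2t3* table and 74.1% of the 12329 tested in the *Irf2bp2* table, and 5.74% and 22.5% of them were called changed (adjusted p at or under 0.05 and a log2 difference of at least 0.5). Among the 464 genes called in both tables, 18 (3.88%) had opposite signs, or 0.147% of the 12225 genes tested in both. These are the 10 genes described here and *Insrr*, *Nup210l*, *Olfr178*, *Oprl1*, *Pkd1l2*, *S100a4*, *Sbsn* and *Slc2a1*. Closest inside the limit were *Oprl1* (log2 differences -1.22 and 0.54 in the *Cbfa2t3* and *Irf2bp2* KDs) and *Ehd3* (0.54 and -1.47), and closest outside were *Dlg3* (0.52 and -0.50, which falls short of the limit before rounding) and *Kcnh2* (0.49 and -0.80). The opposite signs were what chose the genes, and nothing is read from these shares.

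The interleukin 33 receptor gene *Il1rl1* stood at 7.89 and 8.08 CPM in the *Cbfa2t3* controls, at 13.8 and 15.7 CPM with sh2 and at 16.7 and 18.4 CPM with sh3. *Irf2bp2* depletion took it from 20.3 and 23.7 CPM to 10.8 and 10.5 CPM. Every KD library was thus above its controls in the first table (log2 difference 1.02, SE 0.12) and below them in the second (-1.04, SE 0.11), and the *Irf2bp2* controls themselves were higher than every library of the *Cbfa2t3* table. The gene model Il1rl1-001 lies on mouse chromosome 1 at 40496472 to 40522260 (plus strand, mm9, annotation GENCODE vM1). Positions of the 10 genes are those of 1 such model each, whereas distances to binding sites run to the nearest annotated start, of which *Il1rl1* has 5, the site distances starting from another one. The 200 bases before the start of Il1rl1-001, chr1:40496272-40496471, are shown because they hold 1 GATA hexamer, meaning the letters GATA with an A or T before and an A or G after them, searched on both strands and marked by capitals.
Il1rl1 upstream: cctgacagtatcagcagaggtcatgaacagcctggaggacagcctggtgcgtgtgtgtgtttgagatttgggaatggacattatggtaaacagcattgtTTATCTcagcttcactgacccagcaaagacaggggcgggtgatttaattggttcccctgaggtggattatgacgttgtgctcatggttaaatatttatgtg

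The C3a receptor gene *C3ar1* was low, and in the *Irf2bp2* controls it came near the lowest level that these libraries can measure. It stood at 0.903 and 0.846 CPM in the *Cbfa2t3* controls and between 0.285 and 0.515 CPM in the 4 KD libraries (log2 difference -1.19, SE 0.26). The *Irf2bp2* controls held 12 and 4 counts (0.242 and 0.0803 CPM) and the KD libraries 24 and 51 counts (0.541 and 0.986 CPM). By summed counts the KD was 4.85-fold higher there. As a difference in CPM, though not as a ratio, the KD libraries were farther from each other than the nearest control and KD libraries were. The log2 difference was 2.24 (SE 0.49) with all libraries and between 1.67 (without control replicate 2) and 3.23 (without control replicate 1) when 1 library was left out. The gene lies at chr6:122797156-122806179 on the minus strand, and the 200 bases before its start, chr6:122806180-122806379, are shown in the sense of the gene because an IRF2BP2-only site centred 17 bases before the start covers them.
C3ar1 upstream: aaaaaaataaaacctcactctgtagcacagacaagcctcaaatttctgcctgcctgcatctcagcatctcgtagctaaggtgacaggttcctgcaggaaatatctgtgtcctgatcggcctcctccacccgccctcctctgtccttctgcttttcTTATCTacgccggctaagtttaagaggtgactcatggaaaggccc

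The complement protease gene *C1s1* stood at 6.03 and 5.94 CPM in the *Cbfa2t3* controls, at 9.57 and 8.65 CPM with sh2 and at 13.7 and 14.1 CPM with sh3 (log2 difference 0.94, SE 0.21). The *Irf2bp2* controls held 297 and 249 counts (mean 5.50 CPM) and the KD libraries 141 and 101 counts (3.18 and 1.95 CPM; -1.11, SE 0.21). Both hairpins were above the controls and sh3 was above sh2, whereas both *Irf2bp2* KD libraries were below. *C1s1* (C1s in GENCODE vM1, chr6:124480363-124492339, minus strand) has the near-identical neighbour *C1s2*, and 576 of its 3490 exon bases lie opposite Gm16567 and 205 are shared with Gm5077 on the same strand. The sources used here do not state how shared reads or strands were counted, so its level is uncertain.

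The recycling gene *Ehd3* stood at 166 and 159 CPM in the *Cbfa2t3* controls, at 215 and 233 CPM with sh2 and at 247 CPM in both sh3 libraries (log2 difference 0.54, SE 0.07). With the *Irf2bp2* hairpin it was at 67.8 and 64.0 CPM against 182 and 183 CPM in the controls (-1.47, SE 0.08). The control levels of *Ehd3* were close to each other in the 2 tables, and the step after *Irf2bp2* depletion was the larger one. The gene lies at chr17:74154181-74181433 on the plus strand. A site bound by both ETO2 and IRF2BP2 is centred 2600 bases inside it (5.0-fold over IgG), and its central 201 bases, chr17:74156681-74156881, are shown as the only shared site whose nearest gene within 20 kb is one of the 10.
Ehd3 shared site: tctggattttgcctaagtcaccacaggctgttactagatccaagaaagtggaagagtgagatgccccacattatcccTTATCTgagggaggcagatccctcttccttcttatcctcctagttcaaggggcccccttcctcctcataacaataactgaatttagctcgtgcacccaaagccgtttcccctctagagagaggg

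The Na,K-ATPase subunit gene *Atp1b2* was the most abundant of the 10 per length, with a median of 127 RPKM (the authors' values, scaled for transcript length and library size) over the 9 control libraries. It stood at 363 and 374 CPM in the *Cbfa2t3* controls, at 225 and 228 CPM with sh2 and at 213 and 252 CPM with sh3 (log2 difference -0.68, SE 0.07). With the *Irf2bp2* hairpin it was at 733 and 783 CPM against 506 and 519 CPM in the controls (0.56, SE 0.09). The hairpins of *Cbfa2t3* were alike for this gene, and all 4 libraries were below both controls. The gene lies at chr11:69413238-69419331 on the minus strand. Its 200 upstream bases, chr11:69419332-69419531, are shown in the sense of the gene because an IRF2BP2-only site centred 92 bases before the start (7.75-fold over IgG) overlaps them; they hold no GATA hexamer, so no letters are in capitals.
Atp1b2 upstream: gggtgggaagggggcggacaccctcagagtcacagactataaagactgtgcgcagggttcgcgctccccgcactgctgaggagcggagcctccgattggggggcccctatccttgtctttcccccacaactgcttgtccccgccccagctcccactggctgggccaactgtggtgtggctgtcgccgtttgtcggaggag

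The hypoxia-responsive gene *Ndufa4l2* differed most between the hairpins. It stood at 12.7 and 16.1 CPM in the *Cbfa2t3* controls, at 64.3 and 50.1 CPM with sh2 and at 25.6 and 24.5 CPM with sh3 (log2 difference 1.51, SE 0.40). The *Irf2bp2* controls held it at 51.8 and 55.8 CPM, and the KD libraries at a mean of 15.0 CPM (488 and 984 counts; -1.83, SE 0.16). The *Irf2bp2* controls were therefore at the level of the sh2 libraries, and the *Irf2bp2* KD libraries at the level of the *Cbfa2t3* controls. The gene lies at chr10:126951995-126954208 on the plus strand, with 14 of its 960 exon bases opposite Shmt2.

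The allantoicase gene *Allc* stood at 2.89 and 3.07 CPM in the *Cbfa2t3* controls, at 6.78 and 7.68 CPM with sh2 and at 5.60 and 5.90 CPM with sh3 (log2 difference 1.12, SE 0.16). After *Irf2bp2* depletion it was at 1.71 and 1.28 CPM, against 2.95 and 2.51 CPM in the controls (-0.88, SE 0.22). Control levels were alike in the 2 tables for this gene. It lies at chr12:29238620-29267388 on the minus strand. An ETO2-only site is centred 6681 bases inside the gene (4.11-fold over IgG), and its central 201 bases, chr12:29260599-29260799, are shown in the sense of the gene as 1 of the 2 ETO2-only sites nearest to one of the 10 genes.
Allc ETO2-only site: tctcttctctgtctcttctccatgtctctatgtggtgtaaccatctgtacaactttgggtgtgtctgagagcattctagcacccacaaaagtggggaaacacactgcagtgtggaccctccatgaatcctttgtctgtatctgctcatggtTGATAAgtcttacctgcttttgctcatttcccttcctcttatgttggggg

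The diversin gene *Ankrd6* stood at 5.81 and 6.82 CPM in the *Cbfa2t3* controls, at 10.1 and 9.62 CPM with sh2 and at 10.2 and 11.1 CPM with sh3 (log2 difference 0.70, SE 0.11). After *Irf2bp2* depletion it was at 5.75 and 5.72 CPM, against 10.8 and 10.5 CPM in the controls (-0.89, SE 0.13). As for *Ndufa4l2*, the *Irf2bp2* controls were at the level of the *Cbfa2t3* KD, and the *Irf2bp2* KD was close to the *Cbfa2t3* controls. The gene lies at chr4:32891010-33010430 on the minus strand and has 5 annotated start sites. The other ETO2-only site lies in an intron, 2270 bases before the nearest of these start sites (4.63-fold over IgG), and its central 201 bases, chr4:32949587-32949787, hold 3 GATA hexamers.
Ankrd6 ETO2-only site: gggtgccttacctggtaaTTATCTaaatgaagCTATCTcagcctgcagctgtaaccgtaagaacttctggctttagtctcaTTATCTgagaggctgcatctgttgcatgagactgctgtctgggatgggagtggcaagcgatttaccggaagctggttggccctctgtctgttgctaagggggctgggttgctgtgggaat

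The LIM-domain gene *Fhl3* stood at 20.8 and 20.9 CPM in the *Cbfa2t3* controls, at 13.1 and 15.5 CPM with sh2 and at 10.5 and 10.7 CPM with sh3 (log2 difference -0.74, SE 0.15). After *Irf2bp2* depletion it was at 15.6 and 15.9 CPM, against 9.98 and 10.6 CPM in the controls (0.61, SE 0.11). Here the *Irf2bp2* controls were as low as the sh3 libraries. The gene lies at chr4:124377964-124385855 on the plus strand, with an IRF2BP2-only site centred 4587 bases inside it (16.0-fold over IgG). The cDNA-named gene *BC055111* stood at 11.1 and 11.4 CPM in the *Cbfa2t3* controls, at 17.9 and 14.8 CPM with sh2 and at 16.3 and 16.2 CPM with sh3 (0.54, SE 0.10). In the *Irf2bp2* table it stood at 16.8 and 15.9 CPM in controls and at 10.1 and 10.7 CPM in the KD (-0.65, SE 0.11). All 4 *Cbfa2t3* KD libraries were above their controls and both *Irf2bp2* KD libraries below theirs. It lies at chr4:106263915-106289843 on the minus strand. The central 201 bases of the *Fhl3* site, chr4:124382451-124382651, are shown in the sense of the gene because its enrichment exceeds the median of all sites.
Fhl3 IRF2BP2-only site: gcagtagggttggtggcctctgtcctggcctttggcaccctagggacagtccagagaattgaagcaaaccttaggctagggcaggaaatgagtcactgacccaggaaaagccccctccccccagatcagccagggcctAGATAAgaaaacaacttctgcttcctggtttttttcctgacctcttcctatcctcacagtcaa

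**Figure D1:**
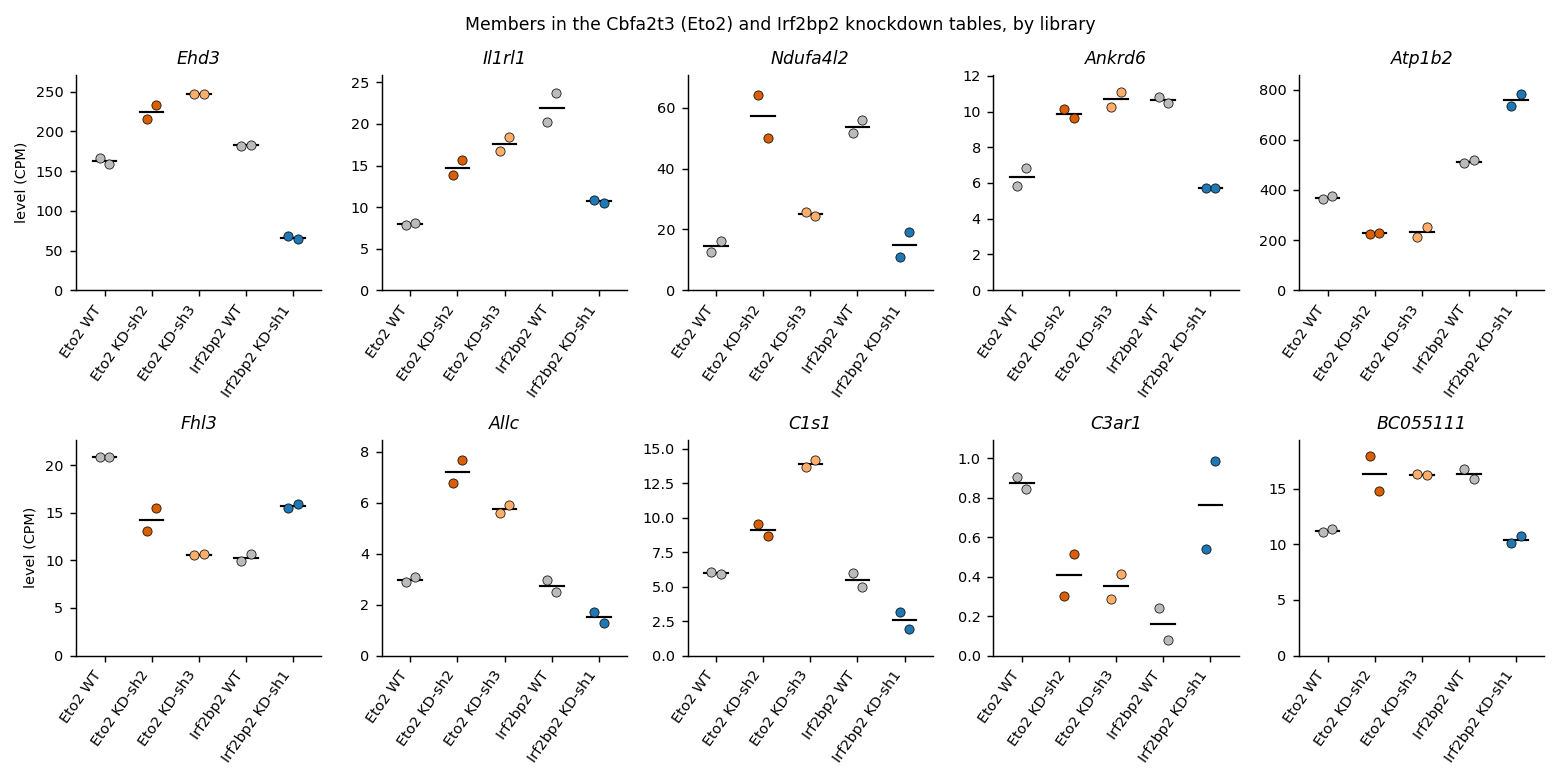
Levels in CPM of each of the 10 genes in every library of the Cbfa2t3 table (Eto2 WT, sh2, sh3) and the Irf2bp2 table (WT, sh1); each point is 1 library and each black bar the mean of its group. Control and KD libraries do not overlap for any of the 10 genes in either table, and Ndufa4l2 differs most between the hairpins (64.3 and 50.1 CPM with sh2, 25.6 and 24.5 CPM with sh3).

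The level of several of these genes also differed between the 2 sets of controls, which carried the same kind of construct but stand in separately normalized tables. The *Irf2bp2* controls exceeded the *Cbfa2t3* controls by 1.90 on the log2 scale for *Ndufa4l2*, 1.46 for *Il1rl1*, 0.76 for *Ankrd6* and 0.54 for *BC055111*, and were below them by -2.44 for *C3ar1* and -1.02 for *Fhl3*. These 6 of the 10 genes had a gap of at least 0.5 (16.0% of the 12225 genes tested in both tables; median size 0.65 for the 10 and 0.22 for all), and for 7 of the 10 the gap had the sign of the *Cbfa2t3* KD difference. The control levels are among the values that chose the genes, and a choice by opposite differences favours such gaps, so these shares are a description from which nothing is read. *Ehd3* (0.17), *Allc* (-0.13) and *C1s1* (-0.12) had nearly the same control level in both tables. The part of the control gap in the opposite signs was not tested. Over all 9 control libraries *Ehd3* ranged from 124 to 183 CPM and *Allc* from 2.29 to 4.46 CPM, whereas *Ndufa4l2* ranged from 4.46 to 169 CPM, a 37.9-fold range whose upper end is a non-induced library, the WT libraries reaching 75.5 CPM. Per length the median control levels ran from 127 RPKM (*Atp1b2*) over 61.2 (*Ndufa4l2*), 45.7 (*Ehd3*), 12.4 (*Fhl3*) and 5.66 RPKM (*BC055111*) to between 1.92 and 2.11 RPKM for *C1s1*, *Ankrd6*, *Allc* and *Il1rl1*, and 0.107 RPKM for *C3ar1*. The control ranges of those last 4 genes above *C3ar1* overlapped each other.

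In cells depleted of LSD1, which played no part in choosing the genes, 8 of the 10 changed, 3 upward and 5 downward. The share called over all 12628 genes tested in that table was 22.5% (12.4% higher and 10.1% lower). *Il1rl1*, *Ndufa4l2*, *Ankrd6*, *Allc* and *BC055111* fell and *Atp1b2* rose, the direction each had in the *Irf2bp2* KD. *Ehd3* and *C1s1* rose, the direction each had in the *Cbfa2t3* KD. Since the genes were chosen for opposite signs in those KDs, each must match 1 of them, and nothing is read from the tally. The genes were tested with edgeR, the p-values being adjusted over all genes of the table, and the test assumes that the 1 control library varies like the 2 KD libraries.

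Among the receptor and complement genes, *Il1rl1* was at 10.4 CPM in the *Kdm1a* control, against 3.61 and 3.72 CPM in the KD (log2 difference -1.50, SE 0.14, adjusted p = 7.0e-09). *C1s1* went from 6.52 CPM to 12.6 and 12.8 CPM (0.96, adjusted p = 8.0e-07). *C3ar1* was at 0.634 CPM in the control, against KD levels of 0.996 and 0.634 CPM (0.38, adjusted p = 0.422), so 1 KD library was at the control level. Among the others, *Ehd3* went from 163 CPM to 335 and 348 CPM (1.07, adjusted p = 3.0e-10). *Ndufa4l2* went from 75.5 CPM to 23.2 and 11.9 CPM (-2.09, adjusted p = 1.2e-09), the widest step of the 10 genes in this table. *Atp1b2* went from 337 CPM to 498 and 500.5 CPM (0.57, adjusted p = 3.5e-06). *BC055111* went from 13.5 CPM to a mean of 9.01 CPM (488 and 412 counts; -0.59, adjusted p = 1.3e-04). The KD libraries of these genes lay close together apart from those of *Ndufa4l2* and *C3ar1*. *Fhl3* stood at 17.1 CPM against 21.4 and 22.2 CPM (0.35, adjusted p = 0.00444), under the size limit. *Allc* (2.90 CPM against 1.53 and 1.47 CPM, -0.95, adjusted p = 0.00107) and *Ankrd6* (7.42 CPM against 5.22 and 4.90 CPM, -0.55, adjusted p = 0.00254) were no longer called by DESeq2 (adjusted p = 0.0819 and 0.0931). The summed mast cell markers were at 111 CPM in the control library, against 232 and 233 CPM in the KD. Of 10 tested members of that list 8 rose and 1 fell, against 12.4% and 10.1% of all genes. The summed myeloid markers were at 141 CPM against 212 and 215 CPM, and 4 of 5 tested rose, against 12.4%. Their part in these results was not tested.

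On differentiation of MEL cells, *Il1rl1*, *Allc* and *C1s1* were almost lost and *Atp1b2* and *BC055111* rose, 5 of the 9 genes tested, against 27.2% of the 11713 genes tested (12.4% higher and 14.8% lower). *Il1rl1* went from 5.63 and 11.4 CPM in non-induced cells to 0.277 and 0.213 CPM in induced cells (log2 difference -5.07, edgeR adjusted p = 2.1e-04). Summed counts were 249 and 7, a 31.8-fold lower level with an exact 95% counting interval of 15.2 to 79.9. *C1s1* went from 5.93 and 8.83 CPM to 0.484 and 0.213 CPM (-4.36, adjusted p = 4.4e-04), or 20.0-fold lower with an interval of 10.7 to 42.3. *Allc* went from 2.29 and 4.46 CPM to no count in either induced library, at least 14.7-fold lower against a floor of 3 counts per library (adjusted p = 8.2e-04). These 3 genes are among those that were higher with the *Cbfa2t3* hairpins and lower with the *Irf2bp2* hairpin. *Atp1b2* went from 334 and 397 CPM to 884 and 1054 CPM (1.41, adjusted p = 0.00119). *BC055111* went from 6.57 and 6.39 CPM to 14.7 and 15.5 CPM (1.22, adjusted p = 0.0214). In these libraries the 4 genes other than *BC055111* went the way of the *Irf2bp2* KD, and *BC055111* the way of the *Cbfa2t3* KD. By the choice of genes each must match 1 of those KDs, so nothing is read from this tally. The call for *BC055111* was lost without non-induced replicate 1, non-induced replicate 2 or induced replicate 2 (adjusted p between 0.0604 and 0.0981). *Ehd3* (164 and 179 against 143 and 156 CPM, -0.20, adjusted p = 0.558) and *Ankrd6* (16.6 and 21.4 against 13.0 and 12.3 CPM, -0.58, adjusted p = 0.198) were lower without passing the test. *Ndufa4l2* (169 and 121 against 94.7 and 92.8 CPM, -0.63, adjusted p = 0.0744) was likewise not called, though it was with the replicate number as a block (edgeR adjusted p = 0.0411). The groups of *Fhl3* overlapped (21.1 and 9.50 against 10.0 and 7.37 CPM, -0.82, adjusted p = 0.154). *C3ar1*, with 9 and 3 counts against 3 and 0, was too low to be tested. The summed mast cell markers stood at 391 and 536 CPM in non-induced and at 72.3 and 346 CPM in induced cells. The summed myeloid markers stood at 61.3 and 108 CPM in non-induced and at 18.5 and 43.3 CPM in induced cells. Of 4 tested, 2 fell, against 14.8% of all genes. The part of both in these results was not tested.

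**Figure D2:**
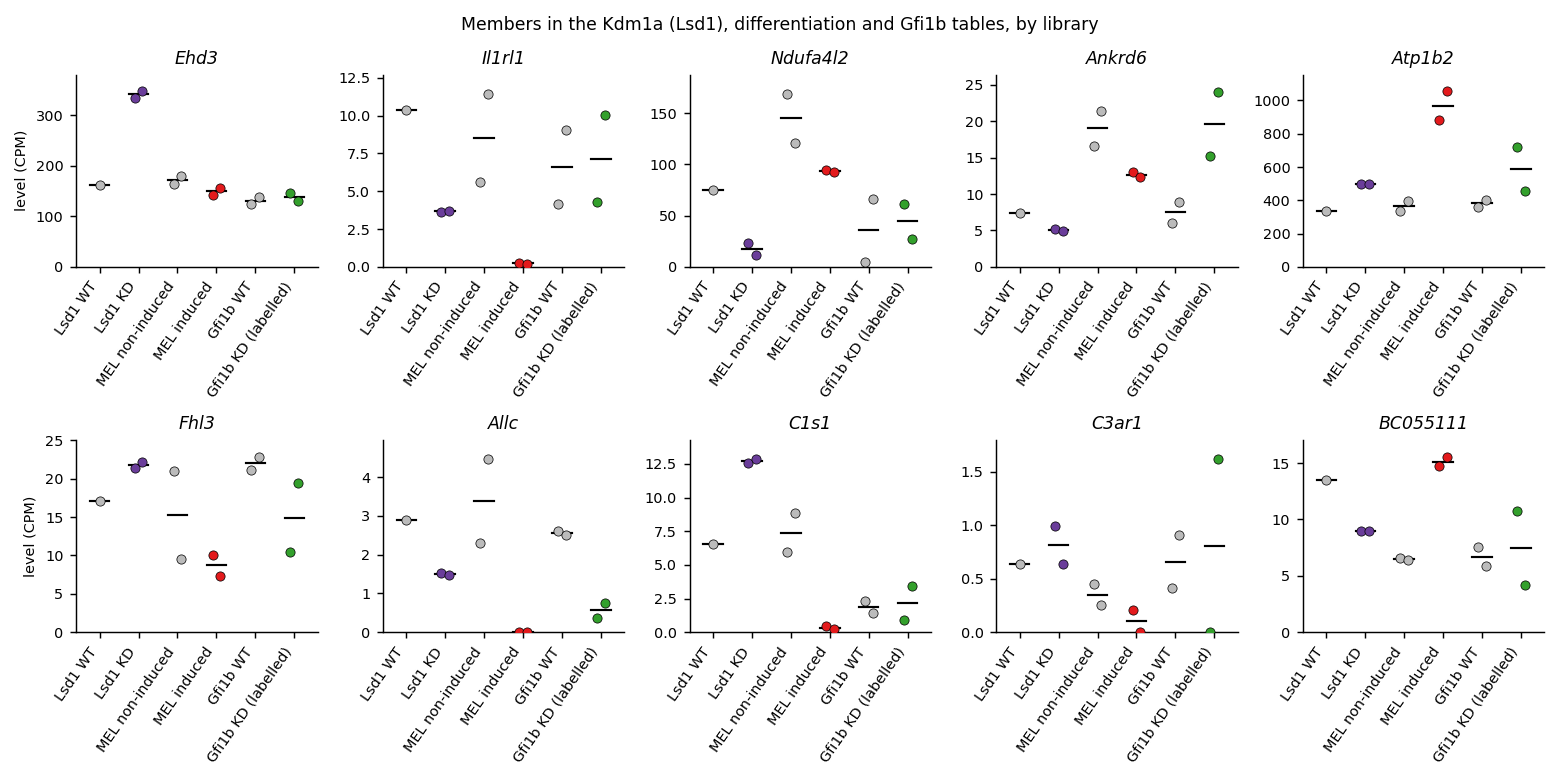
Levels in CPM of each of the 10 genes in every library of the Kdm1a (Lsd1), MEL differentiation and Gfi1b tables; each point is 1 library and each black bar the mean of its group. Il1rl1, Allc and C1s1 are near 0 in both induced libraries, and Ehd3 is at 335 and 348 CPM in the Lsd1 KD against 163 CPM in the control.

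In the *Gfi1b* siRNA table, where *Gfi1b* RNA was not lower in the libraries labelled KD as a group (log2 difference 0.13, edgeR adjusted p = 0.954), none of the 10 genes was called, as for all 11190 genes tested with edgeR (0.0%), while 784 genes (7.01%), 3 of the 10 among them, had an unadjusted p under 0.05 and DESeq2 called 49 genes and none of the 10. *Ankrd6* stood at 6.03 and 8.97 CPM in the controls, at 15.2 CPM in the library labelled KD replicate 1 and at 24.0 CPM in KD replicate 2 (log2 difference 1.39, edgeR adjusted p = 0.690). Without the library labelled KD replicate 1 it was called (1.69, adjusted p = 1.4e-05), together with 396 genes in all. *Atp1b2* stood at 362 and 404 CPM against 722 and 456 CPM (0.62, edgeR adjusted p = 0.699). *Allc* stood at 2.60 and 2.52 CPM against 0.373 and 0.765 CPM (edgeR adjusted p = 0.690), 4.91-fold lower in summed counts with an exact 95% counting interval of 2.80 to 9.10. For these 3 genes and *Fhl3*, 4 of the 10, the groups did not overlap, as for 39.2% of genes. Without KD replicate 2 the fit called 3148 genes, including *Ankrd6* (1.01, adjusted p = 0.0205), *Atp1b2* (0.90, adjusted p = 1.6e-06) and *Fhl3* (-1.09, adjusted p = 0.00225). *Fhl3* stood at 21.1 and 22.9 CPM in the controls, at 10.4 CPM in the library labelled KD replicate 1 and at 19.5 CPM in KD replicate 2. *Ndufa4l2* stood at 4.46 and 66.7 CPM in the 2 controls alone, a spread that covers both KD libraries (61.1 and 27.7 CPM). *Ehd3* (124 and 138 against 146 and 131 CPM), *Il1rl1* (4.18 and 9.07 against 4.26 and 10.0 CPM), *C1s1* (2.33 and 1.41 against 0.906 and 3.40 CPM), *C3ar1* (0.411 and 0.907 against 0 and 1.61 CPM) and *BC055111* (7.54 and 5.85 against 10.7 and 4.16 CPM) had overlapping groups.

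**Figure D3:**
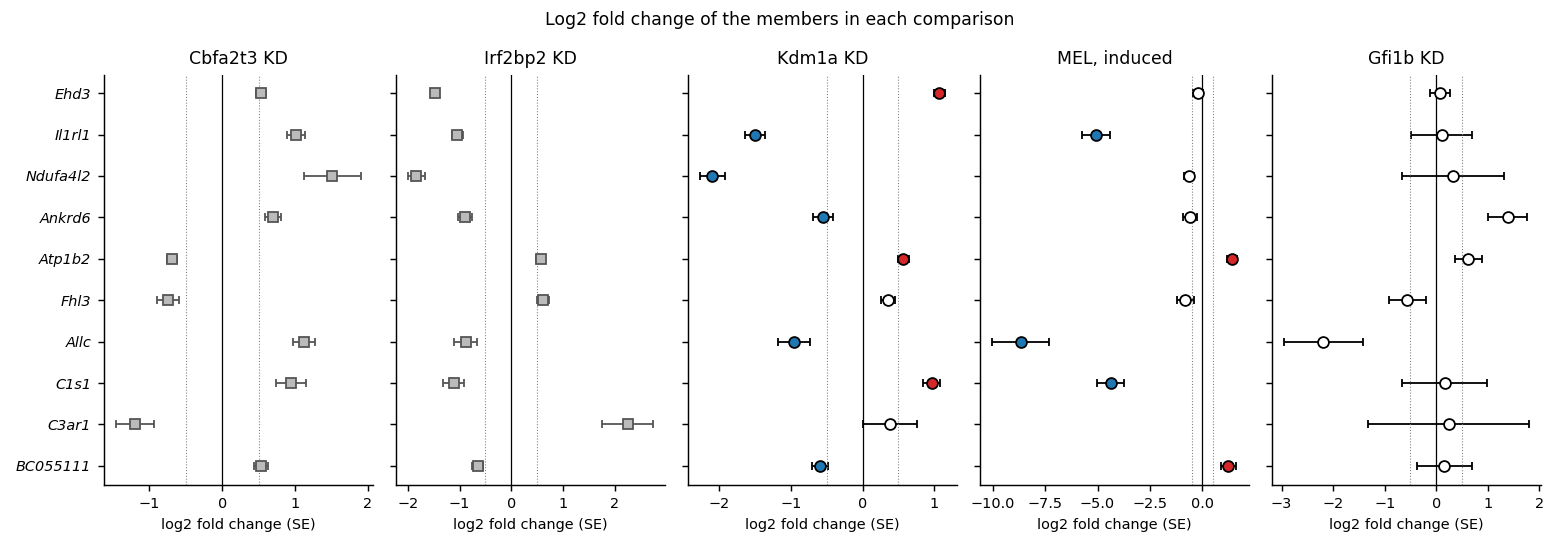
Log2 difference (horizontal axis, scaled separately in each panel) with its standard error for each of the 10 genes in the 5 comparisons; grey squares are the contrasts that chose the genes, red and blue filled points are genes called higher and lower, open points were not called and dotted lines mark 0.5 in each direction. In the Kdm1a panel Ehd3 (1.07), C1s1 (0.96) and Atp1b2 (0.57) are higher and Ndufa4l2 (-2.09) is the lowest of the 10 genes.

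The hairpins of *Cbfa2t3* could be compared directly, since the choice of genes used their common difference from the controls. *Cbfa2t3* RNA was lower with sh3 (mean 134 CPM) than with sh2 (223 CPM; log2 difference -0.73, adjusted p = 7.5e-04). *Ndufa4l2* was lower with sh3 than with sh2 by -1.19 (SE 0.12, edgeR adjusted p = 1.6e-04), so the hairpin that left more *Cbfa2t3* RNA had the higher *Ndufa4l2*. *C1s1* was higher with sh3 by 0.61 (adjusted p = 0.00154). These 2 of the 10 genes passed both limits, against 3.71% of the 12537 genes tested (1.92% higher and 1.79% lower with sh3). *Fhl3* was lower with sh3 by -0.43 (adjusted p = 0.0131), under the size limit. Taken against the controls, sh2 gave 1.99 and sh3 0.79 for *Ndufa4l2*, 0.60 and 1.21 for *C1s1*, -0.55 and -0.98 for *Fhl3*, and 0.46 and 0.60 for *Ehd3*, so no sign changed between the hairpins for these genes.

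The binding sites come from ChIP-Seq in MEL cells, with 1 ChIP and 1 IgG library for IRF2BP2 and an ETO2 ChIP library that the methods take from earlier published data, and fall into 1760 ETO2-only, 2730 shared and 8739 IRF2BP2-only sites. Of the 10 genes, 7 (70.0%) were the nearest gene of at least 1 site within 100 kb of a start site, against 44.7% of the 10700 genes tested in both KD tables and found in the annotation. Within 20 kb the same 7 genes had one, against 38.9% of genes. *Ankrd6* and *Allc* had an ETO2-only site (8.91% of genes), *Ehd3* alone had shared sites (13.8%), and *Ehd3*, *Ankrd6*, *Atp1b2*, *Fhl3*, *C3ar1* and *BC055111* had IRF2BP2-only sites (36.9%). With sites at or above the median enrichment of 7.33-fold only, *Ehd3*, *Atp1b2*, *Fhl3* and *BC055111* remained (40.0%, against 28.3% of genes). Besides the shared site printed above, *Ehd3* had a shared site 71033 bases and IRF2BP2-only sites 13621 and 30733 bases downstream of its start (9.0-, 8.67- and 4.0-fold over IgG). The IRF2BP2-only sites at *C3ar1* (17 bases before the start, 5.17-fold) and *Atp1b2* (92 bases before, 7.75-fold) were the closest to a start site of any listed. The genes with IRF2BP2-only sites were *Atp1b2*, *Fhl3* and *C3ar1*, higher in the *Irf2bp2* KD, and *Ehd3*, *Ankrd6* and *BC055111*, lower in it. A site 3508 bases inside *BC055111* was enriched 20.0-fold over IgG. These directions chose the genes, so nothing is read from this split. *Ndufa4l2* and *Il1rl1* were not the nearest gene of any site. A shared site 6973 bases downstream of the *Ndufa4l2* start (10.5-fold) lies inside Shmt2, and one 70536 bases upstream of *Il1rl1* (21.0-fold) lies inside Il1rl2. *C1s1* was also the nearest gene of none.

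**Figure D4:**
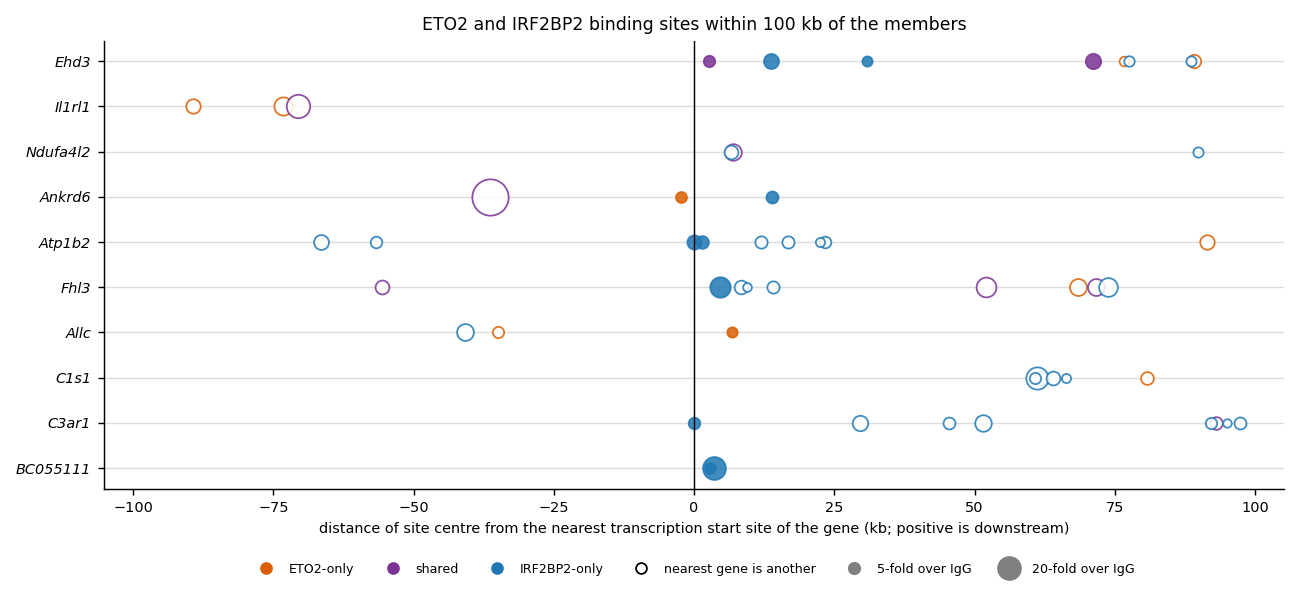
Position of ETO2-only, shared and IRF2BP2-only binding sites within 100 kb of the 10 genes, as distance in kb from the nearest start site of the gene (negative is upstream); colour gives the class, filled points are sites whose nearest gene is the gene named, and area is proportional to fold over IgG. Filled points occur for 7 of the 10 genes, and the sites at C3ar1 and Atp1b2 lie 17 and 92 bases before the start.

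In the printed sequences, the site windows of *Ehd3*, *Allc* and *Fhl3* hold 1 GATA hexamer each and that of *Ankrd6* holds 3. Over all sites, at least 1 hexamer is found in 88.7% of the ETO2-only windows of 201 bases, in 90.4% of the shared ones and in 44.5% of those bound by IRF2BP2 alone. Of the 200-base windows upstream of the start, 4 of 10 hold a hexamer (*Ehd3*, *Il1rl1*, *C3ar1* and *BC055111*), against 13.3% of the 10700 genes. In the RefSeq promoters (GRCm38.p6, 250 bases before to 50 after a start), 4 of the 11 promoters of the 7 genes matched hold one, against 29.8% of all promoters. The hexamer of *C3ar1* lies within the IRF2BP2-only site at its start. A match is a description of these letters only.

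Genes that work with the 10 were taken from lists by function, with the 10 genes themselves left out; in the *Gfi1b* table no member of any list was called. Hypoxia-response genes, the group to which *Ndufa4l2* belongs, included 2 of 22 tested that rose in the *Cbfa2t3* KD, *Egln3* by 1.05 and the glucose transporter *Slc2a1* by 0.55, against 2.99% of all genes. In the *Irf2bp2* KD 11 of 21 fell, against 12.5% of all genes, and 1 rose (median -0.56, all genes -0.01), among them carbonic anhydrase *Car12* (-2.33), the mitophagy gene *Bnip3* (-1.23), *Ankrd37* (-0.96) and *Slc2a1* (-0.95). In the *Kdm1a* KD 10 of 21 fell, against 10.1% of all genes, and none rose (median -0.32, all genes 0.00), led by *Slc2a1* (-2.18), *Ankrd37* (-2.18), the HIF prolyl hydroxylase *Egln3* (-1.56) and *Ndrg1* (-1.51). On differentiation 8 of 21 fell, against 14.8% of all genes, and 1 rose (median -0.61, all genes -0.02). Between hairpins 5 of 22 were lower with sh3 and none higher, against 1.79% and 1.92% of all genes (median -0.27, all genes 0.00). *Slc2a1* is itself 1 of the 18 genes with opposite signs.

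Complement genes around *C1s1* and *C3ar1* numbered 14 tested. In the *Cbfa2t3* KD only *Cd59a*, an inhibitor of the membrane attack complex, rose (0.91), against 2.99% of all genes. In the *Irf2bp2* KD 6 of 14 fell, against 12.5% of all genes, and none rose, with *C3*, the precursor of the C3a ligand, at -1.30 and the *C1s1* copy *C1s2* at -0.86. In the *Kdm1a* KD 4 rose and 4 fell, against 12.4% and 10.1% of all genes, with *C1s2* (1.75) higher and *C5ar2* (-1.64) and *C3* (-1.54) lower. On differentiation 3 of 11 rose and 3 fell, against 12.4% and 14.8% of all genes, *C1s2* by -3.97 and *C3* by -3.47. *C1s2* had the same sign as *C1s1* in these 3 comparisons and also in the *Cbfa2t3* KD, where its value was 0.63 (adjusted p = 0.0768). Since the 2 copies may share reads, they are not separate evidence.

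Among genes of interleukin 1 receptor family signalling, 2 of 13 rose in the *Cbfa2t3* KD, against 2.99% of all genes, *Il1b* by 0.95 and the kinase *Irak2* by 0.63. In the *Irf2bp2* KD 3 of 11 rose, including *Il1b* (1.83) and *Irak2* (0.77), and 2 fell, the kinase *Irak4* (-0.70) and the adaptor *Myd88* (-0.58), against 10.1% of all genes higher and 12.5% lower. *Il1b* and *Irak2* thus rose in both KDs, unlike *Il1rl1*. Of 13 tested in the *Kdm1a* KD *Irak4* rose (0.63) and *Il1r1* fell (-0.61), against 12.4% and 10.1% of all genes. On differentiation the co-receptor *Il1rap*, with which ST2 pairs, was the 1 gene of 13 that rose (1.09), against 12.4%. Of 11 EHD relatives and recycling partners none was called in the *Cbfa2t3* KD. *Ehd1* (0.61) and *Rab11a* (0.57) rose in the *Irf2bp2* KD (10.1% of all genes), where *Ehd3* was lower. In the *Kdm1a* KD 1 of 11 rose, *Ehd2* (1.18), and 2 fell, *Rab11fip2* (-0.74) and *Micall1* (-0.50), against 12.4% and 10.1% of all genes. On differentiation 3 of 11 rose, *Ehd1* (1.49), *Snap29* (1.12) and *Rab11a* (0.86), and *Ehd2* fell (-1.71), against 12.4% and 14.8%. Of the other Na,K-ATPase genes, none of 6 was called in the *Cbfa2t3* KD. In the *Kdm1a* KD 2 of 6 rose, among them the regulator *Fxyd5* (1.10), and the beta subunit *Atp1b1* fell (-1.49), against 12.4% and 10.1% of all genes.

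Of the Wnt and planar cell polarity genes around *Ankrd6*, *Vangl1* rose (1.23) and *Prickle3* fell (-0.72) in the *Cbfa2t3* KD, 2 of 15 tested, against 2.99% of all genes higher and 2.75% lower. In the *Irf2bp2* KD 2 of 15 rose and 3 fell, against 10.1% and 12.5% of all genes, with *Vangl1* at 1.74, *Prickle1* at -1.48, the transcription factor *Tcf7l2* at -1.19 and *Prickle3* at -0.75. *Vangl1* and *Prickle3* thus moved the same way in both KDs. In the *Kdm1a* KD 2 of 16 rose, *Prickle1* (1.78) and *Dvl2* (1.48), and 2 fell, *Ctnnb1* (-1.13) and *Tcf7l2* (-0.51), against 12.4% and 10.1% of all genes. On differentiation 6 of 15 rose and 2 fell, against 12.4% and 14.8% of all genes. *Fhl4*, the only other four-and-a-half-LIM gene tested, fell in the *Irf2bp2* (-1.50) and *Kdm1a* (-1.73) KDs. Of 7 genes of purine degradation, *Xdh* alone was called in the *Cbfa2t3* KD (0.57), against 2.99% of all genes higher. In the *Irf2bp2* KD *Gda* (0.68) and *Nt5c2* (0.67) rose and *Nt5e* (-0.65) fell, against 10.1% and 12.5%, and in the *Kdm1a* KD *Pnp* (0.68) and *Pnp2* (0.65) rose, against 12.4%. On differentiation *Gda* rose (2.02) and *Nt5e* (-2.18) and *Ada* (-1.95) fell, against 12.4% and 14.8%.

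Erythroid genes did not part in the way of the 10 genes. Of 9 tested, 5 rose in the *Cbfa2t3* KD and 7 in the *Irf2bp2* KD and none fell, against 2.99% and 10.1% of all genes higher, with the anion exchanger *Slc4a1* at 3.93 and 5.13. In the *Kdm1a* KD 4 fell (*Slc4a1* -3.01), against 10.1% of all genes, and on differentiation 6 rose and 1 fell (*Slc4a1* 7.23), against 12.4% and 14.8%. The summed mast cell markers were at 105 and 112 CPM in the *Cbfa2t3* controls and between 70.8 and 82.1 CPM in the KD. They were at 107 and 109 CPM in the *Irf2bp2* controls and at 76.7 and 84.3 CPM in the KD, so the sum was lower in both. *Srgn* alone went from a mean of 61.6 to 31.5 CPM in the *Cbfa2t3* KD, where 3 of 8 tested fell, against 2.75% of all genes. In the *Irf2bp2* KD 4 of 6 tested fell and *Gata2* rose (0.52), against 12.5% and 10.1% of all genes. The summed myeloid markers were at 154 and 159 CPM in the *Cbfa2t3* controls and between 119 and 142 CPM in the KD, but at 105 and 110 CPM in the *Irf2bp2* controls and at 137 and 148 CPM in the KD. *Spi1* makes up most of that sum, with means of 82.9 and 123 CPM in the *Irf2bp2* controls and KD. Of 5 myeloid genes tested, *Fcgr3* fell in the *Cbfa2t3* KD (-1.60), against 2.75% of all genes. In the *Irf2bp2* KD *Spi1* rose and *Fcgr3* fell (-2.45), against 10.1% and 12.5% of all genes, with a list median of -0.20. In the *Gfi1b* table the mast cell sum was at 477 and 501 CPM in the controls and at 805 and 1339 CPM in the libraries labelled KD, and the myeloid sum was at 73.1 and 87.7 CPM against 58.3 and 96.7 CPM. Their part in the values of the 10 genes was not tested.

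By the smallest Euclidean distance over the log2 differences of the 5 comparisons, among 11053 genes tested in all of them, *Ndufa4l2* was most like *Bnip3* (1.43), a member of the hypoxia list. *Il1rl1* was closest to the importin gene *Kpna7* (0.68), *Ehd3* to the actin-binding *Svil* (0.78), *Ankrd6* to *Slc2a2* (0.58), *Atp1b2* to *Zfp644* (0.51), *Fhl3* to the actin regulator *Vasp* (0.61), *C1s1* to *Pmfbp1* (0.84) and *BC055111* to the retinoblastoma gene *Rb1* (0.50). The gene nearest to *Allc* was *Sox13* at 2.02, a distance that rests on a fitted value from induced libraries without any *Allc* count. These distances share the comparisons that chose the genes and are given as a description, and *C3ar1* was not tested in all 5.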

How the data were processed

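RNA from 21 MEL libraries was measured by RNA-Seq, and binding sites by ChIP-Seq. The authors aligned reads to mm9 with TopHat2 and deposited, per gene, raw read counts and RPKM values in 5 tables. The deposited columns of the authors' own DESeq2 comparisons (a log2 fold change with its raw and adjusted p-values) were not used. The deposited site lists give each site's fold enrichment ratio over IgG and an adjusted p-value from the authors' callers, and the site classes were matched to the class sizes in the study's methods. All 21 columns of counts were mapped to their labels, and 0 were left unmapped.

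Counts were tested table by table with edgeR 4.0.16 in R 4.3.3 (filterByExpr, TMM, quasi-likelihood F-test, Benjamini-Hochberg adjustment over all genes tested), without a replicate block, as the labels give the replicates only a shared number. Genes were called at an adjusted p at or under 0.05 and a log2 difference of at least 0.5. The standard error (SE) is the log2 difference divided by the square root of its F. CPM are counts scaled by library size and TMM within a table. DESeq2 1.42.0, other filters, a block on the replicate number, each hairpin alone, the adjusted p alone and leaving out each library were alternatives. On simulated counts with 200 genes changed by 1 on the log2 scale, edgeR recovered 189 (*Cbfa2t3* design), 197 (*Irf2bp2*), 193 (*Kdm1a*), 72 (differentiation) and 5 (*Gfi1b*). Depth was lower in the *Gfi1b* and differentiation tables, which widens the counting error there. The spread between replicates was also wider, with a common coefficient of variation of 0.274 for *Gfi1b* and 0.233 for differentiation. It was 0.0912 for *Cbfa2t3*, 0.0706 for *Irf2bp2* and 0.0465 for *Kdm1a*. Sites, start sites (GENCODE vM1, on the mm9 assembly) and sequences were joined with pandas 2.3.3 (Python 3.11.15; scipy 1.17.1, numpy 2.4.6), and figures drawn with matplotlib 3.10.9. GATA hexamers were searched on both strands in the central 201 bases of each site and in 200 bases upstream of each start. In the promoter table from RefSeq (GRCm38.p6), 7 of the 10 genes were matched, and its sequences were not printed because the build differs.

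The members and the gene lists were chosen with earlier results of these data known. Genes named are all members, the targeted genes, up to 4 called genes per list and comparison with the widest differences, the genes nearest the limits and the gene nearest to each member over the 5 comparisons. The other 8 genes with opposite signs, *C1s2* in the *Cbfa2t3* KD and the marker genes were named after their values were seen.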

Additional observations from a re-analysis of the deposited data

Results flagged for a closer look

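*Ndufa4l2*, *C1s1* and *Fhl3* differed between the hairpins that target *Cbfa2t3*, by a direct edgeR test of sh3 against sh2 (2 libraries each). *Ndufa4l2* was lower with sh3 by -1.19 on the log2 scale, with an adjusted p between 4.3e-43 and 0.00119 over the alternatives, and both sh3 libraries were below both sh2 libraries. *C1s1* was higher with sh3 by 0.61. *Fhl3* was lower with sh3 by -0.43, under the size limit, and passed it without sh2 replicate 1 (-0.54). The remaining *Cbfa2t3* RNA also differed (means of 223 CPM with sh2 and 134 CPM with sh3), and its part in these differences was not tested.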

How the results depend on the processing

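No called result reversed its direction. Uncalled log2 differences changed sign under some alternatives for 6 of the 10 genes in the *Gfi1b* table (*Ehd3*, *Il1rl1*, *Ndufa4l2*, *C1s1*, *C3ar1* and *BC055111*) and for 3 between hairpins (*Atp1b2*, *C3ar1* and *BC055111*). Counting genes by the adjusted p alone gave 1423 genes (*Cbfa2t3*), 5810 (*Irf2bp2*), 6121 (*Kdm1a*) and 1720 (sh3 against sh2), and sh3 alone gave 1145 in the *Cbfa2t3* KD. In the *Gfi1b* table DESeq2 called 49 genes, and no filter on low counts gave 411 genes and 1 of the 10 (*Ankrd6*). Requiring at least 10 counts in every library left 2 of the 10 called on differentiation, since *Il1rl1*, *Allc* and *C1s1* were then not tested. Leaving out 1 library gave between 279 (without Eto2 WT replicate 1) and 797 genes in the *Cbfa2t3* table, 360 without Eto2 WT replicate 2, 2557 to 3022 for *Irf2bp2*, 0 to 3148 for *Gfi1b* (0 to 3 of the 10), 1522 (without non-induced replicate 2) to 3369 on differentiation (4 to 5 of the 10; 1626 without non-induced replicate 1 and 1772 without induced replicate 2), and 361 to 582 between hairpins (2 to 3 of the 10). Where this left 1 library in a group, it was assumed to vary like the others. In the *Kdm1a* table leaving out a library left no spread to test with. All 10 genes kept the log2 limit without any 1 library in the *Irf2bp2* KD, and 9 to 10 did in the *Cbfa2t3* KD, where *BC055111* was at 0.49 without sh2 replicate 1. With sites at or above the median enrichment, 4 of the 10 genes had one. With the replicate number as a block, 632 (*Cbfa2t3*), 2834 (*Irf2bp2*), 0 (*Gfi1b*), 3916 (differentiation, where *Ndufa4l2* was added at -0.61, adjusted p = 0.0411) and 581 genes (hairpins) were called. The labels do not say that a number marks a shared day or batch. Same-numbered libraries' deviations correlated across genes by 0.12 to 0.25 between the 3 groups of the *Cbfa2t3* table, and by 0.03 (*Irf2bp2*), 0.00 (*Gfi1b*) and 0.20 (differentiation), so a pairing in the first and last of these is a hint from the data only. For *Kdm1a* no paired analysis was possible because there is 1 control. Depth limits *C3ar1* most.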
